A study of Mus musculus with 16 samples.

Results

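Interferon-stimulated genes are described here as a set of 34 mouse genes, found by their gene symbol in the table of normalized counts, across 16 RNAseq libraries of cMyc+ germinal center (GC) B cells. All 34 symbols matched 1 row each of the 51912 genes in the table. Of the 34 genes, 29 had a mean normalized count of at least 10 and were tested among 12505 genes, and 5 (*Oasl1*, *Mx2*, *Mx1*, *Oas2* and *Ifi44*) did not. The libraries were made from spleens of cMyc gfp/gfp mice, in which the endogenous cMyc locus encodes a fusion of GFP and cMyc, on a C57BL/6J background. Male and female mice aged 6 to 15 weeks were immunized with sheep red blood cells (SRBCs), and B220+ CD38low CD95+ cMycGFP+ cells were sorted after 7 d. CD69hi cells made up the cMyc+prePB subpopulation, which the study named as candidate precursors of plasmablasts. The other subpopulations were separated by CD23 and CD21/35, which were high in cMyc+early, intermediate in cMyc+lateCD23int and low in cMyc+lateCD23lo. Each subpopulation had 4 libraries, numbered 1 to 4 in the labels. Every group shares the reporter allele and the immunization, and no nonimmunized sample and no interferon-treated sample was among the 16 libraries. The labels do not say whether the 4 libraries of a subpopulation came from separate mice, so that p-values measure the spread between these samples only. *Xist*, the RNA of the inactive X chromosome, and *Ddx3y*, a gene of the Y chromosome, were both above 3 reads in all 16 libraries.

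Type I interferons bind a receptor made of IFNAR1 and IFNAR2, which activates the kinases JAK1 and TYK2. STAT2 and IRF9 are subunits of ISGF3, a factor that binds the interferon-stimulated response element (ISRE) in promoters. Type II interferon acts through IFNGR1 and IFNGR2 and leads to binding of the gamma-activated sequence (GAS). Interferon-stimulated genes encode sensors of foreign nucleic acid, effectors that block viruses at successive steps and regulators that amplify or end the response, and many of them also have a basal level in resting lymphocytes.

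The promoter sequences show what many of the members share beyond their name. In the RefSeq table of GRCm38, promoters of 25 of the 34 members were found, each from 250 bases before to 50 bases after the start of the gene. *Mx1*, *Mx2*, *Dhx58*, *Oas2*, *Usp18*, *Rtp4*, *Zbp1*, *Parp9* and *Parp14* had no entry. The ISRE core was searched as GAAANNGAAA on both strands and was in the promoter of 11 of the 25 members (44%), compared with 3.99% of 27025 genes. A GAS was searched as TTC and GAA with 3 bases of any kind between them and was in 6 of 25 members (24%), compared with 9.55% of genes. The stretches of 80 bases below lie before the start of the gene, on the strand of the gene, and were chosen because their genes are those whose values are given below or, for *Isg15*, because its core occurs as an overlapping series. Capitals mark the ISRE core, which appears as its reverse complement where it lies on the opposite strand.
Gbp2, chr3:142620569-142620648: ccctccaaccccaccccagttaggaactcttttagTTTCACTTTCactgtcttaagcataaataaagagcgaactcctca
Bst2, chr8:71537552-71537631: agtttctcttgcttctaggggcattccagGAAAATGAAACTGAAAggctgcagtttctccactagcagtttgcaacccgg
Isg15, chr4:156200840-156200919: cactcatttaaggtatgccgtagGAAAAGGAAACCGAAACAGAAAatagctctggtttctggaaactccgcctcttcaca
Ifit3, chr19:34583372-34583451: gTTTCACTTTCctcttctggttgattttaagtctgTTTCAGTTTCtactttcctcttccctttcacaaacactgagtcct
Stat2, chr10:128270248-128270327: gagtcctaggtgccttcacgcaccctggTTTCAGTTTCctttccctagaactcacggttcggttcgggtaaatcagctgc
Rsad2, chr12:26456528-26456607: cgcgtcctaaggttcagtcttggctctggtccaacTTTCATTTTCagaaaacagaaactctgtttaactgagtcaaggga
Oas3, chr5:120777690-120777769: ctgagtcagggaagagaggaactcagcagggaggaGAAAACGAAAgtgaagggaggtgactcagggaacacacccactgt
In *Bst2* and *Isg15* the cores overlap each other, and in *Bst2* a GAS also overlaps the first core. *Ifit3* holds a pair of separate cores. *Sp100*, *Irf9*, *Irf7*, *Trim25*, *Xaf1*, *Dtx3l*, *Lgals3bp*, *Oasl1*, *Oasl2* and *Ifi44* had neither motif in this window. These matches are letters in a window and were not tested for binding.

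The members covered a wide range of levels, from 0 reads to above 90.2% of all tested genes. The level was expressed as the mean normalized count per kilobase (kb) of exons, since genes differ in length. *Ifi35* (partner of the interferon-induced protein Nmi) was the highest at 1230.0 per kb, followed by *Sp100* (component of PML nuclear bodies) at 979.8, *Samhd1* (hydrolase of deoxynucleotides) at 595, *Bst2* (tetherin, which holds budding virus at the membrane) at 583 and *Isg20* (an RNA exonuclease) at 376. By subpopulation, the level of *Ifi35* per kb in cMyc+prePB was 1354 ± 116 (SD, n = 4). It was 1357 ± 157 in cMyc+early, 1184 ± 91.1 in cMyc+lateCD23int and 1024 ± 148 in cMyc+lateCD23lo. For *Sp100* these levels were 721 ± 142, 1174 ± 311, 1038 ± 227 and 986 ± 179 per kb. The SDs of *Ifi35* and *Sp100* overlap in cMyc+early, cMyc+lateCD23int and cMyc+lateCD23lo, and their order is not resolved there. The SDs of *Samhd1* and *Bst2*, the next in order, overlap except in cMyc+prePB, where the level of *Bst2* was 820.3 ± 206 per kb and that of *Samhd1* 507 ± 78.8. The median over the 29 tested members was 58.7 per kb, compared with 79.9 over all tested genes with a length, and 11 of the 29 lay above that median.

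**Figure D1:**
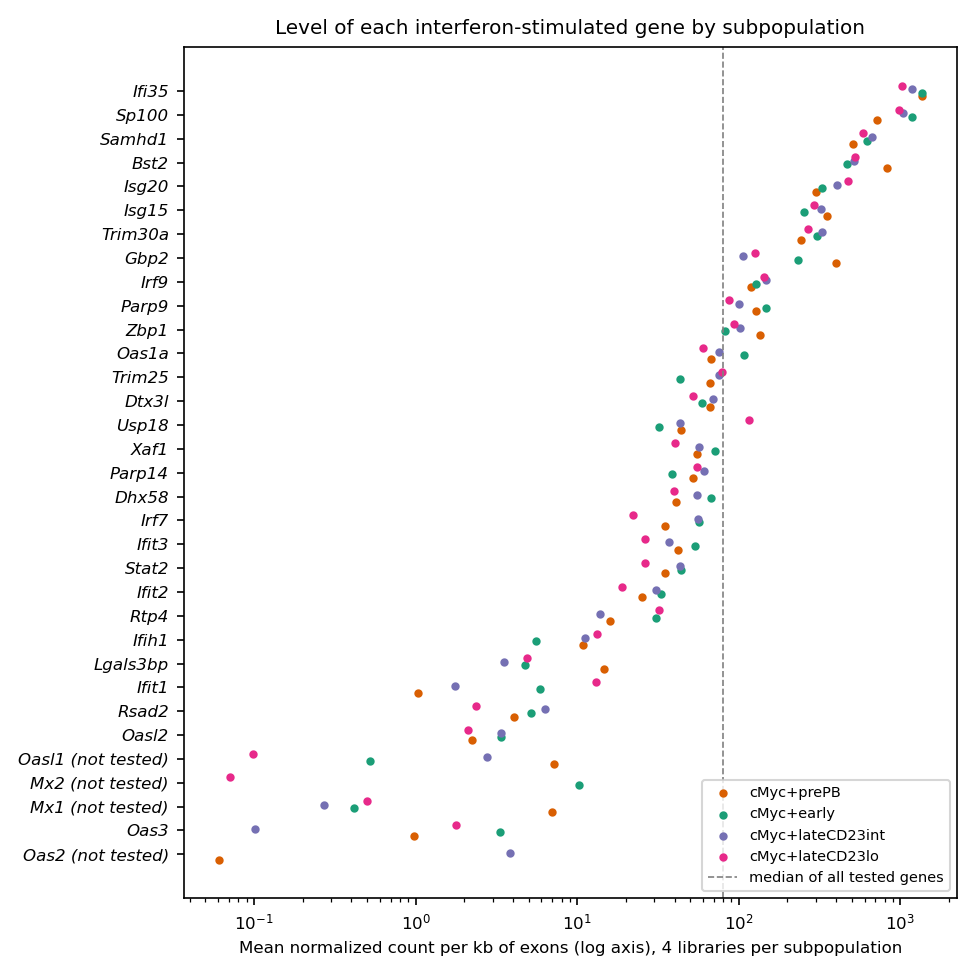
Mean normalized count per kb of exons for 33 members on a log axis, 1 point per subpopulation (mean of 4 libraries), with the median of all tested genes as a dashed line. *Ifi35*, *Sp100*, *Samhd1* and *Bst2* stand at the top in all 4 subpopulations, and the members at the bottom differ between subpopulations through single libraries. *Ifi44* was at 0 in every library and is not drawn, nor are subpopulations at 0.

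The lowest tested members were *Oas3* at 1.54, *Oasl2* at 2.77 and *Rsad2* at 4.46 per kb. *Oas3* and *Oasl2* belong to the oligoadenylate synthetases and their relatives, which respond to double-stranded RNA, and *Rsad2* encodes viperin, an inhibitor of viral replication. *Oas3* had normalized counts of 1.07, 26.5, 0 and 0 in cMyc+prePB libraries 1 to 4, 4.19, 0.885, 87.6 and 0.903 in cMyc+early, 0, 1.02, 0 and 1.86 in cMyc+lateCD23int and 0, 0, 49.95 and 0 in cMyc+lateCD23lo. It was above 3 reads in 4 of 16 libraries, which lie in cMyc+prePB, cMyc+early and cMyc+lateCD23lo. *Oasl2* was 23.6, 33.1, 0 and 0, 1.05, 0, 2.89 and 82.2, 0.995, 0, 27.0 and 57.6 and 1.08, 0, 11.2 and 41.8 in the same order. *Rsad2* was 0, 38.9, 0 and 31.6, 89.1, 0, 0 and 0, 0, 98.7, 1.04 and 9.29 and 1.08, 0, 0 and 39.8. For each of these genes the subpopulations overlap, and every subpopulation holds libraries at or under 3 reads. Among the untested members, *Mx2* reached 114 in 1 cMyc+early library, *Mx1* 55.4 in 1 cMyc+prePB library, *Oasl1* 59.5 in another cMyc+prePB library and *Oas2* 67.9 in 1 cMyc+lateCD23int library. *Mx1* and *Mx2* encode antiviral GTPases. A count of 0 allows up to 3 reads, or 2.48 to 3.23 on the normalized scale depending on the library, and this limit covers counting error only. Of the values of the tested members, 14.2% were at or under 3 reads, compared with 7.42% over all tested genes. Among genes with a mean under 200, these shares were 31.7% for 13 members and 18% for all 5151 genes.

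By role, all 3 transcription factors of the set were tested (*Stat2*, *Irf9* and *Irf7*), as were all 3 RNA and nucleic acid sensors (*Ifih1*, *Dhx58* and *Zbp1*), all 3 members of the ISG15 pathway (*Isg15*, its deconjugating enzyme *Usp18* and the ubiquitin ligase *Trim25*) and all 3 of the PARP9-DTX3L group (*Parp9*, *Dtx3l* and *Parp14*, which attach ADP-ribose or ubiquitin). Of the 10 effectors acting on RNA or translation or, for *Samhd1*, on deoxynucleotides (*Ifit1*, *Ifit2*, *Ifit3*, *Oas1a*, *Oas2*, *Oas3*, *Oasl1*, *Oasl2*, *Isg20* and *Samhd1*), 8 were tested, but above 3 reads in all 16 libraries were only *Isg20* and *Samhd1*. Of the 6 acting on virus particles or their entry, assembly or release (*Mx1*, *Mx2*, *Bst2*, *Rsad2*, *Gbp2* and *Ifi44*), 3 were tested. All 6 other regulators were tested, namely *Sp100*, *Trim30a*, *Ifi35*, *Xaf1*, *Rtp4* and *Lgals3bp*. In total, 17 of the 34 members were above 3 reads in every library. Members of the *Ifit*, *Oas*, *Gbp* and *Mx* families and *Sp100* have close relatives in the genome, and reads shared with these cannot be told apart here. *Parp9* and *Dtx3l* overlap on opposite strands, and whether counting used the strand is not given in the sources used here.

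Ligands were nearly absent from these libraries, and the receptors were present. Of 21 interferon genes looked up, 20 were at 0 in all 16 libraries, *Ifnb1*, the *Ifna* genes and *Ifng* among them, and *Ifnk* reached 18.9 at most. *Ifnar1*, a chain of the type I receptor, had normalized counts of 32.2, 333, 115 and 419 in cMyc+prePB libraries 1 to 4, 271, 1019, 254 and 385 in cMyc+early, 479, 413, 541 and 465 in cMyc+lateCD23int and 380.4, 289, 84.6 and 125 in cMyc+lateCD23lo. All cMyc+lateCD23int libraries were above all cMyc+lateCD23lo libraries, the other subpopulations overlap, and *Ifnar1* did not pass the comparison over the 4 subpopulations (adjusted p = 0.522). *Ifnar2*, the other chain, ranged from 115 to 346 over the 16 libraries (adjusted p = 0.892). Mean normalized counts over the 16 libraries were 2895 for *Ifngr1* and 1013 for *Ifngr2*, the chains of the type II receptor.

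The multigroup comparison asked whether the members differ between the 4 subpopulations. In a model with no term for the number of the library, no member passed it. With such a term *Sp100* passed, as described further on. The comparison was a moderated F test in limma on log2(normalized count + 1), adjusted over all 12505 tested genes. With an adjusted p under 0.05, 0 of 29 members passed, compared with 51 of all tested genes (0.408%). With an unadjusted p under 0.05, 4 members did (*Gbp2*, *Sp100*, *Bst2* and *Ifi35*), which is 13.8% of the members, compared with 10.2% of all tested genes. The quasi-likelihood test of edgeR on the recovered reads gave 0 members adjusted and 4 unadjusted. In cMyc+prePB minus cMyc+early, 0 members passed adjusted (0.192% of all tested genes) and 2 unadjusted (8.58% of all). In cMyc+prePB minus cMyc+lateCD23int, the counts were 0 (0.144%) and 4 (8.77%). In cMyc+prePB minus cMyc+lateCD23lo, they were 0 (0.264%) and 5 (12.7%). Between cMyc+early and cMyc+lateCD23int they were 0 (0.008%) and 2 (3.71%), between cMyc+early and cMyc+lateCD23lo 0 (0.28%) and 2 (10.3%), and between cMyc+lateCD23int and cMyc+lateCD23lo 0 (0.008%) and 0 (6.28%). In edgeR no member passed adjusted in these 6 comparisons, and 2, 4, 5, 2, 2 and 0 passed unadjusted, in the same order. The shares of all tested genes above are from limma. Shares in edgeR are not given, so the edgeR counts here and below stand without a background. The SE of a log2 fold change ranged from 0.16 to 1.90 over the members (median 0.59) and exceeded 1 for 11 of them.

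**Figure D2:**
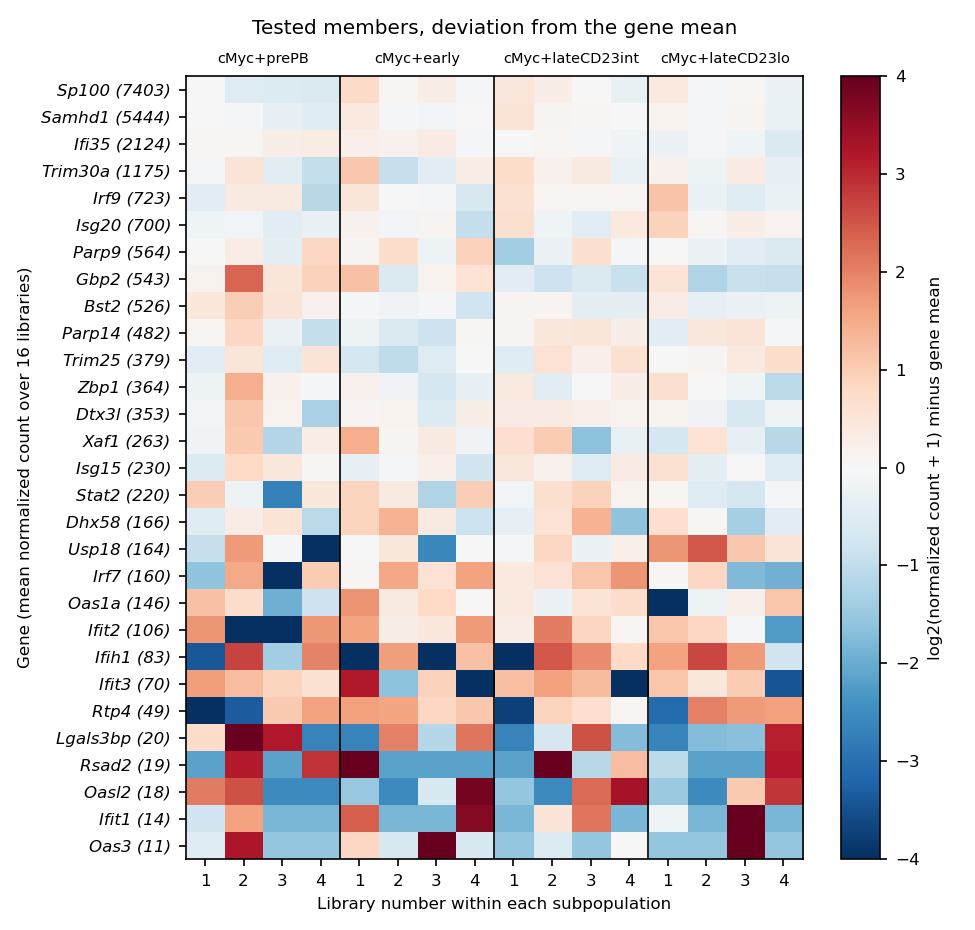
Deviation of log2(normalized count + 1) from the gene mean for the 29 tested members (rows, ordered by mean, which is given in brackets) in the 16 libraries (columns, numbered within each subpopulation). Colors are limited to the range of the bar. The upper rows vary little, and the lower rows switch between libraries of the same subpopulation. The highest library is cMyc+prePB library 2 for 8 members, and the share over all tested genes was not counted, so this may be a trait of the library.

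The members with the smallest p-values pointed in different directions. *Sp100* (chr1:85649988-85709998, plus strand) had normalized counts of 7054, 5039.7, 4900.3 and 4793 in cMyc+prePB libraries 1 to 4 and 12243, 7602, 8657 and 6989.6 in cMyc+early. It was 9778, 8556, 7276 and 5776 in cMyc+lateCD23int and 9301, 6963, 7426 and 6102 in cMyc+lateCD23lo. The mean was lowest in cMyc+prePB (5447 ± 1076, SD, n = 4) and highest in cMyc+early (8873 ± 2349.9), and these groups overlap only in that cMyc+prePB library 1 was above cMyc+early library 4. The log2 fold change of cMyc+prePB minus cMyc+early was -0.69 (SE 0.20), adjusted p = 0.263. Against cMyc+lateCD23int it was -0.52 (SE 0.20), adjusted p = 0.464, and against cMyc+lateCD23lo -0.45 (SE 0.20), adjusted p = 0.359. Over the 4 subpopulations *Sp100* did not pass (adjusted p = 0.383) in this model, which has no term for the number of the library. With the number as a block it passed in limma (adjusted p = 0.0238) and in edgeR (adjusted p = 0.0319). Its values by number are given further on. In bulk samples such as these, fewer cells that express a gene and less RNA per cell cannot be told apart.

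*Bst2* (chr8:71534255-71537456, minus strand), whose promoter holds the overlapping ISRE cores shown above, had its highest mean in cMyc+prePB. Its normalized counts were 669.6, 1002, 725 and 566 there, 478, 454, 478 and 289 in cMyc+early, 539, 549.6, 385 and 397 in cMyc+lateCD23int and 619, 402, 426 and 442 in cMyc+lateCD23lo. The cMyc+prePB libraries were all above those of cMyc+early and cMyc+lateCD23int, and 1 cMyc+lateCD23lo library lay among them. The log2 fold change of cMyc+prePB was 0.80 (SE 0.27), adjusted p = 0.368, against cMyc+early, and 0.65 (SE 0.27), adjusted p = 0.489, against cMyc+lateCD23int. Against cMyc+lateCD23lo it was 0.64 (SE 0.27), adjusted p = 0.329. *Gbp2* (chr3:142620602-142638008, plus strand), a guanylate-binding GTPase induced most by type II interferon, also had its highest mean in cMyc+prePB. Normalized counts of *Gbp2* were 465, 2155, 595 and 806 in cMyc+prePB, 963, 281, 466 and 628 in cMyc+early, 317, 238, 282 and 227 in cMyc+lateCD23int and 621, 183, 230.4 and 224 in cMyc+lateCD23lo. All cMyc+prePB libraries were above all cMyc+lateCD23int libraries, and cMyc+lateCD23lo library 1 lay among the cMyc+prePB libraries. The mean of cMyc+prePB (1005 ± 779) rests in large part on library 2. The log2 fold change of cMyc+prePB was 1.66 (SE 0.47), adjusted p = 0.243, against cMyc+lateCD23int, and 1.58 (SE 0.47), adjusted p = 0.178, against cMyc+lateCD23lo. Without cMyc+prePB library 2 these were 1.20 (adjusted p = 0.506) and 1.13 (adjusted p = 0.383).

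*Ifi35* (chr11:101448407-101458698, plus strand) was the most evenly measured member. Its normalized counts were 2155, 2182, 2464 and 2555 in cMyc+prePB, 2397, 2389, 2621 and 1970.0 in cMyc+early, 2103, 2218, 2013 and 1845 in cMyc+lateCD23int and 1772, 2019, 1866 and 1419 in cMyc+lateCD23lo. The cMyc+lateCD23lo libraries were all below the cMyc+prePB libraries, and the log2 fold change of cMyc+prePB minus cMyc+lateCD23lo was 0.41 (SE 0.16), adjusted p = 0.274. For cMyc+early minus cMyc+lateCD23lo it was 0.41 (SE 0.16), adjusted p = 0.36. *Trim25*, the ubiquitin ligase that acts with the RNA sensor RIG-I, had normalized counts of 261, 503, 249 and 523 in cMyc+prePB, 219, 177, 246 and 356 in cMyc+early, 254, 526, 407 and 541 in cMyc+lateCD23int and 363, 386, 467 and 585 in cMyc+lateCD23lo. All 4 cMyc+early libraries were below all 4 of cMyc+lateCD23lo, and the log2 fold change was -0.87 (SE 0.35), adjusted p = 0.401. *Usp18*, the enzyme that removes ISG15 and dampens the type I receptor, was 53.7, 335, 98.3 and 1.80 in cMyc+prePB, 101, 139, 16.4 and 101 in cMyc+early, 99.5, 181, 87.2 and 117 in cMyc+lateCD23int and 349, 575, 217 and 147 in cMyc+lateCD23lo. The cMyc+prePB libraries of *Usp18* ranged from under 3 reads in library 4 to a value above 2 of the cMyc+lateCD23lo libraries, and the log2 fold change of cMyc+prePB minus cMyc+lateCD23lo was -2.58 (SE 1.04), adjusted p = 0.307.

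**Figure D3:**
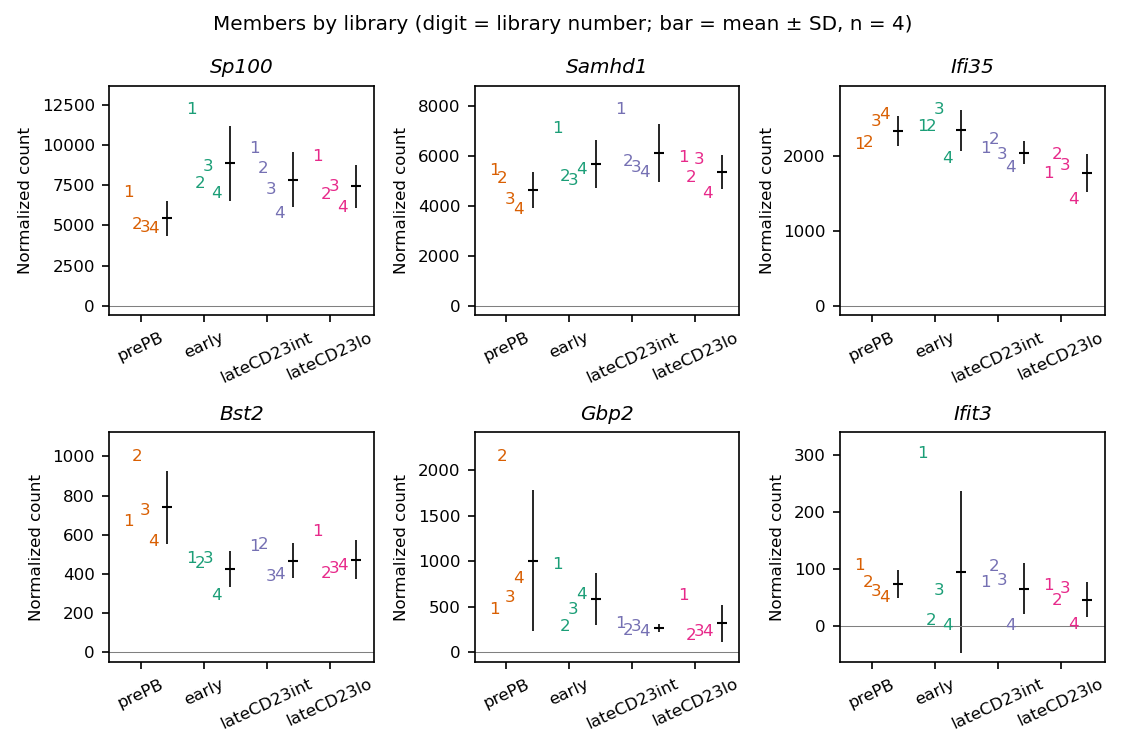
Normalized counts of *Sp100*, *Samhd1*, *Ifi35*, *Bst2*, *Gbp2* and *Ifit3* by subpopulation, with each library drawn as its number and the mean ± SD (n = 4) beside it. The axes start at 0 or below, where the SD of *Ifit3* reaches under 0. *Bst2* and *Gbp2* have their highest library in cMyc+prePB library 2, and *Sp100* and *Samhd1* have theirs in the libraries numbered 1.

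*Stat2* and *Irf9*, subunits of ISGF3, and *Irf7*, the factor that amplifies type I interferon, did not pass the multigroup comparison. *Irf9* had normalized counts of 504, 877, 876 and 310.2 in cMyc+prePB, 957, 685, 659 and 435 in cMyc+early, 1022, 718, 719 and 711 in cMyc+lateCD23int and 1489, 563, 484 and 557 in cMyc+lateCD23lo (adjusted p = 0.927). *Stat2* was 375, 163, 28.0 and 258, 350.0, 242, 79.9 and 370.2, 174, 295, 353 and 208 and 198, 130.1, 114 and 179 in the same order (adjusted p = 0.855). *Irf7* was 32.2, 289, 0.902 and 204, 104, 296, 150.1 and 309.7, 130.4, 149, 217 and 345 and 102, 179, 28.5 and 25.5 (adjusted p = 0.634). In all 3 the subpopulations overlap, and *Irf7* went from under 3 reads to 289 within cMyc+prePB. *Irf1*, a factor induced by type II interferon, was highest in cMyc+prePB library 2 at 1119 and ranged from 156 to 1119 over all libraries (adjusted p = 0.536). *Socs1*, a feedback inhibitor of the JAK kinases, ranged from 8.60 to 295 (adjusted p = 0.874).

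In the same model, which has no term for the number of the library, no gene of the wider pathway passed the multigroup comparison after adjustment either. Of 128 tested genes of the ligand, receptor, signal transduction, regulatory factor, sensing and other interferon-stimulated gene lists, 0 passed the multigroup comparison adjusted and 27 unadjusted (21.1%, compared with 10.2% of all tested genes). In edgeR these counts were 0 and 28. The list of other interferon-stimulated genes held 83 tested genes, of which 0 passed adjusted and 19 unadjusted (22.9%), and in edgeR 0 and 19. Over the 6 pairwise comparisons, 3 to 21 of the 83 passed unadjusted in limma (3.61% to 25.3%) and 3 to 17 in edgeR, compared with 0 to 5 of the 29 members and 3.71% to 12.7% of all tested genes in limma. The highest of these counts, 21 in cMyc+prePB minus cMyc+early, held 10 genes that were higher and 11 that were lower in cMyc+prePB. The median log2 fold change of the members in cMyc+prePB minus cMyc+early was -0.16, beside 0.01 over all tested genes. It was -0.30, beside -0.02, in cMyc+prePB minus cMyc+lateCD23int and -0.06, beside -0.01, in cMyc+prePB minus cMyc+lateCD23lo, where it became 0.02 once the libraries were rescaled to the same total. For cMyc+early the median was -0.15 against cMyc+lateCD23int (all tested genes -0.03) and 0.19 against cMyc+lateCD23lo (all -0.01), and for cMyc+lateCD23int minus cMyc+lateCD23lo it was 0.18 (all 0.02).

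Members were also compared between the replicate numbers of the labels, and 2 of them passed. In a limma model with subpopulation and number, 2 of 29 members passed the number terms with an adjusted p under 0.05, compared with 3.14% of all tested genes, and 5 passed unadjusted (17.2%, compared with 17.7% of all). The labels do not state what the number stands for. *Sp100* passed (adjusted p = 0.0185). In each of the 4 subpopulations its highest library was the one numbered 1 and its lowest the one numbered 4, with 7054 to 12243 in the libraries numbered 1 and 4793 to 6989.6 in those numbered 4. The call for *Sp100* was lost without cMyc+prePB library 1 (adjusted p = 0.0768), cMyc+early library 1 (adjusted p = 0.106), cMyc+lateCD23int library 1 (adjusted p = 0.062) or cMyc+lateCD23int library 4 (adjusted p = 0.0582). In edgeR *Sp100* passed too (adjusted p = 0.0217) and was the only member to do so.

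*Ifit3* (chr19:34583531-34588731, plus strand), which binds viral RNA together with other IFIT proteins, was the other member that passed (adjusted p = 0.0431). Its normalized counts were 105, 76.9, 60.4 and 50.5 in cMyc+prePB, 304, 9.73, 62.6 and 0 in cMyc+early, 76.6, 104, 78.9 and 0 in cMyc+lateCD23int and 71.1, 44.9, 66.3 and 2.04 in cMyc+lateCD23lo. Library 4 was the lowest in each subpopulation, and 3 of the 4 libraries numbered 4 were at or under 3 reads. *Ifit3* remained past the threshold in 5 of 16 leave-one-out fits, which were those without cMyc+prePB library 4, cMyc+early library 2, cMyc+early library 3, cMyc+lateCD23int library 2 or cMyc+lateCD23int library 3, and adjusted p-values over the 16 fits ranged from 0.0144 to 0.152. In edgeR it did not pass (adjusted p = 0.377). *Samhd1*, which limits the deoxynucleotide pool and with it retroviral replication, had normalized counts of 5393, 5095, 4234 and 3852 in cMyc+prePB, 7104, 5147, 5010.4 and 5438 in cMyc+early, 7846, 5763, 5520.4 and 5318 in cMyc+lateCD23int and 5913, 5144, 5848 and 4474 in cMyc+lateCD23lo. It was highest in the library numbered 1 of every subpopulation but did not pass (adjusted p = 0.147), and its log2 fold change of cMyc+prePB minus cMyc+lateCD23int was -0.39 (SE 0.17), adjusted p = 0.499. The sensor *Ifih1* (MDA5) ranged from 0 to 99.1 in the libraries numbered 1 and from 105 to 213 in those numbered 2 (adjusted p = 0.119). *Rtp4*, an inhibitor of flavivirus replication, was 0, 1.65, 54.1 and 79.4, 81.7, 78.8, 46.2 and 55.1, 0.995, 47.8, 41.5 and 27.0 and 2.16, 106, 85.6 and 80.6 in cMyc+prePB, cMyc+early, cMyc+lateCD23int and cMyc+lateCD23lo (adjusted p = 0.184). *Xaf1*, a binding partner of the apoptosis inhibitor XIAP, was 202, 463, 98.3 and 277, 610.0, 241, 287 and 203, 355, 454, 71.6 and 184 and 141, 337, 178 and 103 (adjusted p = 0.302). In *Rtp4* and *Xaf1* the libraries of every number overlap.

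Other genes also moved with the number. *Xist* had normalized counts of 1649 to 2234 in the libraries numbered 1, 114 to 520.3 in those numbered 2, 727 to 1968 in those numbered 3 and 349 to 985 in those numbered 4 (adjusted p = 0.00109). *Ddx3y* had 534 to 1319, 3079 to 4509, 657 to 2017 and 959.7 to 2939 in the same order (adjusted p = 0.000483). The libraries numbered 2 thus had the lowest *Xist* and the highest *Ddx3y*, in all 4 subpopulations. The hemoglobin gene *Hbb-bs* was highest in the library numbered 4 of each subpopulation (331 to 1524, compared with 4.30 to 122 in those numbered 1, adjusted p = 0.0142). Not every hemoglobin gene followed the number. *Hbb-bt* had 195 to 785 in the libraries numbered 4 and 220.3 to 1367 in those numbered 1, and was lowest in library 4 of cMyc+early and cMyc+lateCD23lo. *Hba-a1* and *Hba-a2* were highest in library 4 of cMyc+prePB, cMyc+early and cMyc+lateCD23int but in library 2 of cMyc+lateCD23lo. *Xist*, *Ddx3y* and *Hbb-bs* were picked after their values had been seen, and their part in the differences of *Sp100* and *Ifit3* was not tested.

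The spread between libraries of the same subpopulation was set beside that of all tested genes of like level. The pooled SD of log2(normalized count + 1) within subpopulations had a median of 2.56 over 6 members with a mean of 10 to 50, compared with 2.00 over the 2696 tested genes in that class. For a mean of 50 to 200 it was 1.86 over 7 members, compared with 1.13, and for 200 to 500 it was 0.548 over 7 members, compared with 0.629. From 500 to 2000 the medians were 0.571 over 6 members and 0.406 over all genes, and above 2000 they were 0.227 over 3 members and 0.273. In all, 20 of the 29 members were above the median of their class. No test was made of this difference. The lowest SD was that of *Ifi35* (0.162), and the highest that of *Rsad2* (2.94).

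**Figure D4:**
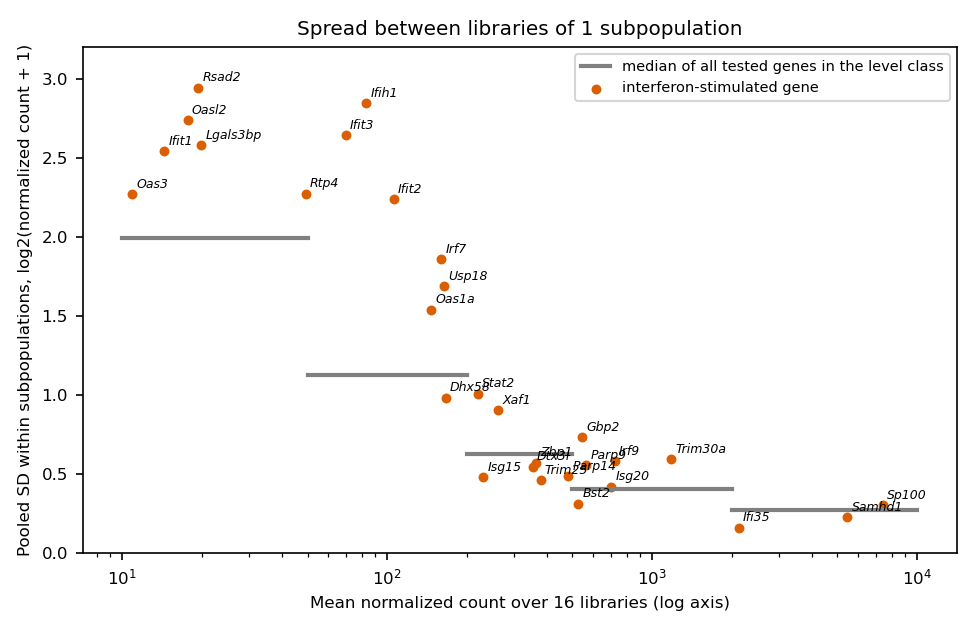
Pooled SD of log2(normalized count + 1) within subpopulations (y axis) against the mean normalized count (x axis, log) for the 29 tested members (points), with the median of all tested genes in 5 classes of level (gray lines). *Ifit3*, *Ifih1* and *Ifit2* lie furthest above their class, and *Ifi35*, *Bst2* and *Isg15* lie below.

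As a score, the deviations of the 29 tested members from their gene means were averaged in each library. The score was -0.26, 0.84, -0.75 and -0.28 in cMyc+prePB libraries 1 to 4 and 0.49, -0.05, -0.23 and 0.20 in cMyc+early. It was -0.48, 0.43, 0.38 and -0.08 in cMyc+lateCD23int and -0.16, -0.10, 0.24 and -0.18 in cMyc+lateCD23lo. The mean of cMyc+prePB was -0.11 ± 0.67 (SD, n = 4). The other means were 0.10 ± 0.31 in cMyc+early, 0.06 ± 0.43 in cMyc+lateCD23int and -0.05 ± 0.20 in cMyc+lateCD23lo, and the subpopulations overlap. Both the highest and the lowest library belonged to cMyc+prePB. Over the 17 members above 3 reads in every library, cMyc+prePB library 2 was again the highest at 0.57, and cMyc+lateCD23lo library 4 was the lowest at -0.35. Averaged over the 83 other interferon-stimulated genes, the score of cMyc+prePB library 2 was 0.81, also the highest of the 16. Without this library the mean of cMyc+prePB was -0.43. The same library had *Sdc1* at 108 and *Prdm1* at 119, a surface marker and a transcription factor of plasma cells. The other cMyc+prePB libraries had at most 2.15 and 9.02. *Prdm1* was not highest in this library, since it reached 133 in cMyc+lateCD23lo library 2. *Sdc1* was highest in this library of all 16, followed by 53.0 in cMyc+lateCD23int library 4 and 45.1 in cMyc+early library 2. *Sdc1* was above 3 reads in these 3 libraries only. The mean of *Prdm1* was 35.2 in cMyc+prePB, 80.7 in cMyc+lateCD23int and 82.9 in cMyc+lateCD23lo. The summed plasma cell markers of cMyc+prePB library 2 were 36387, the lowest of the 4 cMyc+prePB libraries, since *Jchain* was lowest there. Their part in the score was not tested.

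**Figure D5:**
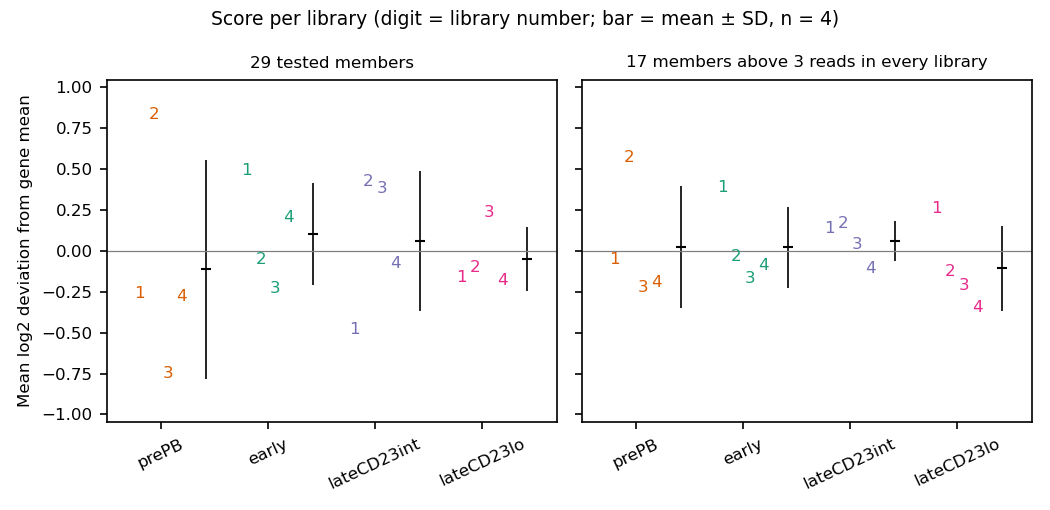
Mean deviation of log2(normalized count + 1) from the gene mean by library, for the 29 tested members (left) and the 17 members above 3 reads in every library (right), with libraries drawn as their number and the mean ± SD (n = 4) beside them. The subpopulations overlap in both, and cMyc+prePB library 2 is the highest library in both.

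The extent to which members varied together was described over pairs of genes. Over the 406 pairs of tested members, the median Pearson correlation of log2 values across the 16 libraries was 0.07, and 59.6% of pairs were positive. Over the 136 pairs of the 17 members above 3 reads in every library the median was 0.13, and 0.21 for deviations from the subpopulation means, of which 73.5% were positive. For log2 values, the median over all pairs of 9402 tested genes measured in every library was near 0 (-0.003), which stands beside the 0.13. No such median over all genes was computed for the deviations, so the 0.21 and the 73.5% have no background here. These are descriptions over libraries that share 4 subpopulations and 4 numbers, and were not tested.

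All 5 B cell markers and all 7 GC B cell markers were above 3 reads in every library, with sums of normalized counts of 80224 to 230171 and 29324 to 60134. Recovered reads ranged from 19812080 to 25795815 per library, and 14650 to 15573 genes were detected. Of the plasmacytoid dendritic cell list, the cells best known as a source of type I interferon, 3 of 7 markers were at or under 3 reads in all libraries, *Siglech* among them, and the sum, from 4220 to 8931, was highest in cMyc+prePB library 2, where *Tcf4*, which B cells also express, made up 8869 of it. *Ly6c2* was 60.2, 53.8, 0 and 33.4 in cMyc+prePB libraries 1 to 4. It reached 19.9 in cMyc+early, 0 in cMyc+lateCD23int and 1.08 in cMyc+lateCD23lo. *Cox6a2* was above 3 reads in 6 of 16 libraries (at most 28.9) and *Ccr9* in 2 (at most 9.67). The part of this list in the values above was not tested. Of the neutrophil list 4 of 5 markers were at 0 in every library. The macrophage or monocyte list, with 1 of 10 at 0 in every library, summed to 307 to 876 in cMyc+prePB, 288.0 to 502 in cMyc+early, 309 to 1059 in cMyc+lateCD23int and 756 to 1510 in cMyc+lateCD23lo, and its part in the values above was not tested. Of the T cell list 2 of 8 markers were above 3 reads in every library, and the sum was 2195 to 3886 in cMyc+early and 4092 to 7088 in the other subpopulations. *Lck* made up 2157 to 6839 of it, and *Cd3e* reached at most 30.7. *Trac* ranged from 11.6 to 110.4 and was above 3 reads in every library, and *Cd3d* reached 73.9. Of the erythroid list 3 of 6 markers were above 3 reads in every library. Its sum ranged from 165 to 4954 and was highest in library 4 of cMyc+prePB, cMyc+early and cMyc+lateCD23int (2428 to 4954) and in library 2 of cMyc+lateCD23lo (1509). The part of the T cell and erythroid lists was not tested either.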

How the data were processed

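Total RNA of sorted cMyc+ GC B cell subpopulations was sequenced in 16 libraries (NEBNext Single Cell/Low Input kit). The deposited values are a signal that the authors obtained by dividing the counts of each library by its size factor. The submitters' processing notes name Trimmomatic 0.36, STAR 2.5.2a, RSEM 1.2.31, DESeq2 1.20.0, R 3.5.1 and the build GRCm38, and the annotation release is not given in the sources used here. Columns were assigned by the names in the labels, and 0 columns were left unused. Values were whole multiples of 1 read per library (within 0.01) for 100% of values, so that reads were recovered. Whether these whole counts are reads or rounded estimates from RSEM is not given in the sources used here. The labels' subpopulation and number gave the groups.

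Genes with a mean of at least 10 were fitted as log2(normalized count + 1) in limma 3.58.1 (R 4.3.3, trended prior, Benjamini-Hochberg over all tested genes). A fold change on this scale understates that of low genes. Fits were tested on simulated data. Alternatives were pseudocounts, filters, scalings, no trend, edgeR 4.0.16 on the recovered reads, only the groups compared, the replicate block and leaving out each library. Per-library values are given for members past a threshold, the 6 smallest p-values of the multigroup comparison and of the number terms, the 3 highest and 3 lowest tested levels per length, and *Stat2*, *Irf9* and *Irf7*. Of the wider pathway, *Irf1*, *Ifnar1*, *Ifnar2*, *Socs1* and genes past a threshold are named, and 1 further gene of this rule is not reported here. Members and gene lists were chosen with earlier results of these data known. Gene positions and exon lengths are from the GENCODE annotation of GRCm38, and promoters are from RefSeq. Single-cell and flow cytometry data were not used here.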

Additional observations from a re-analysis of the deposited data

Results flagged for a closer look

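In 104 groups of 4 libraries (25 named genes and the score in 4 subpopulations), a library stood far from the other 3 in 13, with a gap to the nearest of them that exceeded the critical value of Dixon's test. Chance alone flags about 1 in 20 such groups where values are normally distributed. Counts at or near 0 are not, so the share that chance would flag here is not known. In cMyc+prePB, library 1 of *Sp100* was at a normalized count of 7054 (the other 3 libraries 4793 to 5039.7), and library 2 of *Oas3* was at 26.5 (the other 3 libraries 0 to 1.07). In cMyc+early, library 4 of *Bst2* was at 289 (the other 3 libraries 454 to 478) and library 2 of *Ifnar1* at 1019 (the other 3 libraries 254 to 385). In the same subpopulation *Oas3* was at 87.6 (the other 3 libraries 0.885 to 4.19) in library 3, *Oasl2* at 82.2 (the other 3 libraries 0 to 2.89) in library 4 and *Rsad2* at 89.1 (the other 3 libraries 0) in library 1. In cMyc+lateCD23int, *Rsad2* was at 98.7 (the other 3 libraries 0 to 9.29) in library 2 and *Irf9* at 1022 (the other 3 libraries 711 to 719) in library 1. In cMyc+lateCD23lo, library 1 was high for *Irf9*, at 1489 (the other 3 libraries 484 to 563), and for *Gbp2*, at 621 (the other 3 libraries 183 to 230.4). *Oas3* was at 49.95 (the other 3 libraries 0) in library 3 and *Rsad2* at 39.8 (the other 3 libraries 0 to 1.08) in library 4. Of the 13, 7 concern *Oas3*, *Oasl2* or *Rsad2*, the tested members with the lowest levels per kb.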

How the results depend on the processing

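In the multigroup and pairwise comparisons 0 members passed after adjustment under every alternative except the replicate block. With the replicate block, 1 member (*Sp100*) passed in the multigroup comparison in limma (adjusted p = 0.0238) and in edgeR (adjusted p = 0.0319), in cMyc+prePB minus cMyc+early in both (adjusted p = 0.00997 in limma), and in cMyc+prePB minus cMyc+lateCD23int in limma alone (adjusted p = 0.0481). Of the 128 genes of the wider pathway, 4 passed the multigroup comparison with the block, among them *Ifi203*, *Ifi209* and *Tgtp1* (adjusted p = 0.0257, 0.00237 and 0.0329), and 2, 3, 4 and 1 passed in cMyc+prePB minus cMyc+early, cMyc+lateCD23int and cMyc+lateCD23lo and in cMyc+early minus cMyc+lateCD23lo. The share of all tested genes that passed with the block is not given here. These counts with the block, of members and of pathway genes, thus stand without a background and are no result about the pathway. The number of the labels was not treated as a pairing, because the labels do not say what it marks and not every pair of same-numbered libraries correlated above 0.1 in its deviations from the subpopulation means. The correlation was -0.129 to 0.174 over the tested genes (mean 0.0509, above 0.1 in 5 of 24 pairs), -0.592 to 0.701 over the 3651 most abundant genes (mean 0.259, 17 of 24) and -0.407 to 0.629 over the members (mean 0.148, 14 of 24). Pairs with different numbers had means of -0.0166, -0.0813 and -0.0495. These are no separate comparison, since deviations that sum to 0 within a subpopulation nearly fix them from the means of same-numbered pairs. A library correlated best with one of its own number in 10, 11 and 9 of 16 cases, which is a hint from the data and not from the design. In the number terms, where 2 members passed, 1 did with a pseudocount of 5, without a filter or in edgeR, 0 without a trend or without the subpopulation in the model, and 0 to 2 when single libraries were left out. The cause was not tested. All counts over single libraries left out were 0 in the other comparisons. Calls over all tested genes ranged from 25 to 173 in the multigroup comparison (51 as reported), from 0 to 65 in cMyc+prePB minus cMyc+early (24), from 7 to 121 against cMyc+lateCD23int (18), from 13 to 192 against cMyc+lateCD23lo (33), from 17 to 90 in cMyc+early minus cMyc+lateCD23lo (35), from 0 to 2 in the remaining pairs (1 each) and from 28 to 616 in the number terms (393). Of 15 log2 fold changes recomputed, for *Bst2*, *Gbp2*, *Ifi35*, *Samhd1*, *Sp100*, *Trim25* and *Usp18*, none changed sign in any alternative. The score of cMyc+prePB library 2 ranged from 0.567 to 0.916 and was the highest of the 16 each time. The mean score of cMyc+prePB ranged from -0.127 to 0.11 across alternatives. The upper end, 0.11, is the mean over the other interferon-stimulated genes in place of the members, which is a change of genes and not of processing. With single libraries left out the mean score of cMyc+prePB ranged from -0.429 to 0.0989, so that the order of the subpopulations is not fixed. The highest 5 levels per length were the same genes under every alternative tried. Low counts limit what can be seen, since the 11 members with an SE above 1 on the log2 scale all had means under 200.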

Other observations

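Of the 83 other interferon-stimulated genes tested, 4 passed the number terms with an adjusted p under 0.05 in limma, compared with 3.14% of all tested genes, and 27 unadjusted (32.5%, compared with 17.7% of all). In edgeR these counts were 3 and 28, with no share of all tested genes in edgeR given here. *Ifi209*, a member of the family of DNA-binding proteins to which the sensor Ifi204 belongs, was highest in the library numbered 1 and lowest in the library numbered 4 of each subpopulation, at 3134 to 9632 and 1678 to 3819 normalized counts (adjusted p = 0.00819). *Sp110*, a nuclear body protein related to *Sp100*, had the same extremes in each subpopulation, at 6737 to 9354 and 4391 to 6025 (adjusted p = 0.0344). *Ms4a4c*, a membrane protein, was highest in the library numbered 1 of each subpopulation, at 3341 to 7180.2 (adjusted p = 0.0114). *Apobec3*, a cytidine deaminase that acts on retroviral DNA, lay the other way, with 3909.9 to 4266 in the libraries numbered 1 and 5142 to 7347 in those numbered 4 (adjusted p = 0.0498), and the libraries of both numbers do not overlap. Reads shared between *Sp100*, *Sp110* and their relatives cannot be told apart here.

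Between subpopulations, *Ifi209* was lowest in cMyc+prePB, at 3134, 2879, 2309 and 1678 in libraries 1 to 4, compared with 9632, 4281, 5806 and 3079.5 in cMyc+early, 8973, 5723, 4567 and 3437 in cMyc+lateCD23int and 6870.0, 4994, 6339.9 and 3819 in cMyc+lateCD23lo. It did not pass the multigroup comparison (adjusted p = 0.238) in the model with no term for the number. With the replicate block it passed, as given above. Without that block, the log2 fold change of cMyc+prePB minus cMyc+early was -1.10 (SE 0.32), adjusted p = 0.275.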
